A study of Rattus norvegicus with 16 samples.

Results

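Messenger RNA of the amygdala was compared between male Wistar rats that had met both early-life stress and a high fat diet and rats that had met neither. The comparison rests on 8 of the 16 libraries of the series, 4 labelled ELS-HFD and 4 labelled control, taken by their labels and their columns of raw counts. Wistar is an outbred stock of laboratory rat. All animals came from bred litters with free access to food and water. ELS-HFD rats had spent 3 h of each day away from the dam for 16 days, starting on postnatal day 1, whereas control offspring stayed with the dam. Every group met the elevated plus maze, a test of anxiety-like behaviour, around postnatal day 57, and each rearing was split between chow and high fat diet on postnatal day 60, so the controls had been maze-tested too and ate chow. The other 8 libraries, 4 from undisturbed rats on high fat diet (HFD) and 4 from separated rats on chow (ELS), are used below only to place individual genes. Per the series title, these rats are the founding males of a study on how a father's early stress and diet bear on daughters.

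The labels call the tissue brain and the material a whole tissue lysate, and the design text names the amygdala. Neither the litter, the animal nor the age at tissue collection is given for a library, so littermates may share a group and p-values measure the spread between these libraries, which may in part be technical. In bulk tissue, fewer cells of a type and less RNA per cell cannot be told apart.

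The amygdala joins a cortex-like basolateral part, rich in glutamatergic neurons, with a striatum-like central part of GABAergic and peptidergic neurons, and it takes part in fear and anxiety. Separation from the dam in the first weeks of life is a widely used rodent model of early adversity, and the hormonal stress response it engages acts on this region through glucocorticoid and corticotropin-releasing hormone receptors. A high fat diet is known to act on feeding circuits, insulin and leptin signalling, lipid metabolism and inflammatory genes in brain.

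Total counts were 12390332 to 21716366 per control library and 12913158 to 15641528 per ELS-HFD library, and 13870 of the 15580 genes in the table had enough counts to be tested. Markers of the amygdala were present in every library. The 18 tested genes of the basolateral and cortical amygdala summed to 3571 to 3762 CPM in controls and 3728 to 4313 CPM in ELS-HFD, and the 17 of the central amygdala to 801.1 to 1520 and 1004 to 1356 CPM. CPM relates the count of a gene to the total of its library, scaled to a common size by trimmed means of M values (TMM). Tissue from outside the amygdala differed between libraries. The 18 genes of the choroid plexus, the epithelium that makes cerebrospinal fluid, summed to only 70.87 CPM in ELS-HFD 1 and to 2477 to 13630 CPM in the other 7 libraries, and ELS-HFD 1 stood apart on the first principal component.

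No gene passed an adjusted p of 0.05 in edgeR's quasi-likelihood test of 4 against 4 libraries, where the smallest adjusted p was 0.264 for RT1-N2 and the next was 0.999. Without adjustment, 565 genes had p under 0.05, which is 4.07% of those tested, 321 higher (2.31%) and 244 lower (1.76%) in ELS-HFD. All 4 ELS-HFD libraries lay above all 4 controls for 145 genes (1.05%) and below them for 126 (0.908%), 271 genes (1.95%) in all. Log2 folds of all genes were centred near 0, with a median of -0.003, 49% positive and 51% negative. A fit of the same 8 libraries in DESeq2 called 3 genes, Jph1, Samd4a and Tgm2, at an adjusted p of 0.0394 each, and limma voom with sample quality weights called RT1-N2 alone at 0.0233. In the edgeR fit, leaving out control 4 gave 1 call, Rpl30 (adjusted p = 0.00331), and leaving out ELS-HFD 3 gave 1 call, RT1-N2 (adjusted p = 0.0197). The number of genes under an unadjusted p of 0.05 was 314 without control 2, 343 without ELS-HFD 1 and 1045 without ELS-HFD 3. In counts simulated for this comparison, 200 genes were set to change and 13776 were tested. The same test recovered 18% of the 100 genes changed by 0.5 on the log2 scale. It recovered 60% of the 100 genes changed by 1, with 3 false calls among unchanged genes. These shares depend on how many genes were set to change, so they do not give the share recovered in the real counts. Every value of ELS-HFD against control below is therefore a measurement that did not pass adjustment in edgeR, with an adjusted p of 0.999 unless another is given, and p-values of comparisons with HFD and ELS are given where those appear.

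**Figure D1:**
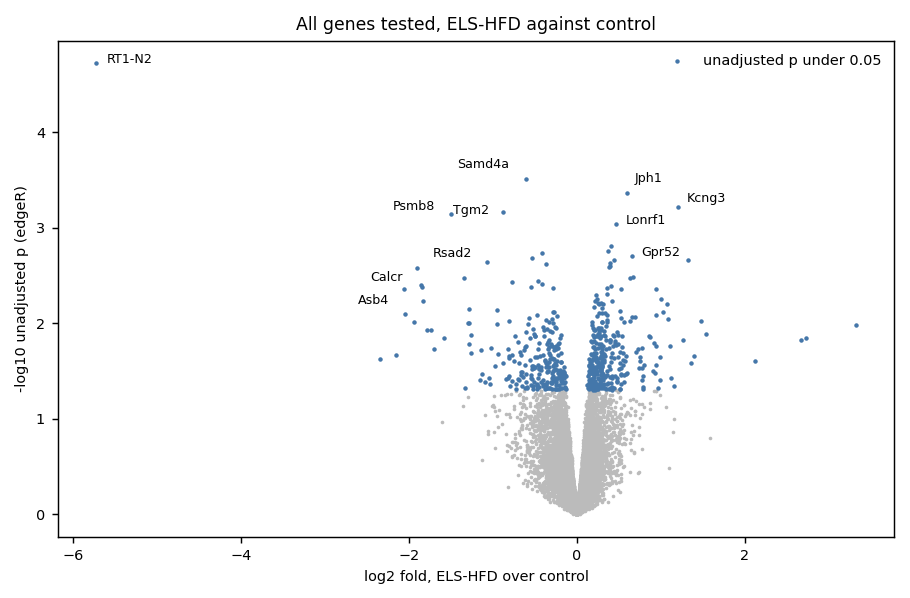
Log2 fold of ELS-HFD over control (x axis) against the -log10 of the unadjusted edgeR p (y axis) for the 13870 genes tested, with the 565 genes under 0.05 in blue. RT1-N2 stands alone at the upper left, Samd4a, Jph1, Kcng3, Tgm2 and Psmb8 follow, and the cloud is balanced around 0.

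Samd4a (ENSRNOG00000010489) encodes the vertebrate homologue of Smaug, an RNA-binding protein that in flies represses translation of its target messages and recruits deadenylases to them. It was at 14.8, 15.4, 16.9 and 14.5 CPM in controls 1 to 4 and at 9.96, 9.25, 11.8 and 9.28 CPM in ELS-HFD 1 to 4. The groups did not overlap, and ELS-HFD 3 was the ELS-HFD library nearest to the controls. The log2 fold was -0.61 ± 0.11 (standard error), and it lay between -0.69 and -0.56 when any library was left out. DESeq2 called this gene on the same libraries, as given above, and the authors' deposited table gave it an adjusted p of 0.000405, the only one of at most 0.05 before that table's own correction of its p-values, against 13 genes after the correction. The HFD group lay at the ELS-HFD level, with 10.3 ± 0.482 CPM (SD, n = 4), and the ELS group at or above the control level, with 16.6 ± 1.28 CPM. In a model of all 16 libraries, Samd4a was the only gene to pass between ELS-HFD and ELS, where its log2 fold was -0.72 ± 0.09 (adjusted p = 0.0153). There 1 gene in 14208 (0.00704%) passed, and 882 (6.21%) had an unadjusted p under 0.05. That call ended without any of ELS 1, ELS 2, ELS 3, ELS-HFD 1, ELS-HFD 2 or ELS-HFD 4, with an adjusted p between 0.0547 and 0.112, while the log2 fold stayed between -0.80 and -0.67 whichever of the 8 libraries was left out. Between ELS-HFD and HFD the log2 fold was -0.03 ± 0.09 (adjusted p = 1). The paralog Samd4b was at 95 ± 6.51 CPM in controls and 93.8 ± 9.47 CPM in ELS-HFD, a log2 fold of -0.01 ± 0.09 whose sign changed with the setting.

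Jph1 (ENSRNOG00000006110) encodes junctophilin 1, which tethers the endoplasmic reticulum to the plasma membrane so that surface channels and calcium release channels face each other. It was at 15.1, 13.1, 13.3 and 14.1 CPM in controls 1 to 4 and at 25.1, 21.6, 18.6 and 18.9 CPM in ELS-HFD 1 to 4. Every ELS-HFD library was above every control, with ELS-HFD 1 the highest. The log2 fold was 0.60 ± 0.11, or 0.51 without ELS-HFD 1. The neuronal paralogs were far more abundant and less separated, Jph3 at 392 ± 25.4 CPM in controls and 421 ± 43.3 CPM in ELS-HFD, and Jph4 at 272 ± 28.1 and 308 ± 38.5 CPM. Levels of Jph1 in the single-exposure groups lay between those of the 2 groups compared here, at 18.5 ± 3.26 CPM in HFD and 16.8 ± 1.15 CPM in ELS.

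Tgm2, which encodes the calcium-dependent crosslinking enzyme tissue transglutaminase, was at 22.1, 13.7, 18.1 and 15.4 CPM in controls 1 to 4 and at 10.3, 9.12, 10.8 and 7.33 CPM in ELS-HFD 1 to 4. The highest ELS-HFD library stayed below the lowest control, control 2, and the controls spread more widely than the ELS-HFD libraries. The log2 fold was -0.88 ± 0.18. Both single-exposure groups spanned the gap, from 8.28 to 19.3 CPM in HFD and from 7.92 to 14.9 CPM in ELS.

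The 250 bases before the RefSeq start of Samd4a are shown because this gene had the smallest p in the authors' deposited table, and those of Psmb8 because it lies in the chromosome 20 neighbourhood described below. Both were taken from the RefSeq promoter table of the rat build GRCr8, 5′ to 3′ on the strand of the gene, from chr15:22727019-22727268 on the plus strand and chr20:4657032-4657281 on the minus strand. Capitals mark TGTTCT, the core hexamer that the glucocorticoid receptor reads.
Samd4a: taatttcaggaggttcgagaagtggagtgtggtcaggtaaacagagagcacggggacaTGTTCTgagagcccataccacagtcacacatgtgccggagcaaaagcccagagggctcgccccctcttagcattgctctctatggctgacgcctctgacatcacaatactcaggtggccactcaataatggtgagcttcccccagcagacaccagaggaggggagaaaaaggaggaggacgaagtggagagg
Psmb8: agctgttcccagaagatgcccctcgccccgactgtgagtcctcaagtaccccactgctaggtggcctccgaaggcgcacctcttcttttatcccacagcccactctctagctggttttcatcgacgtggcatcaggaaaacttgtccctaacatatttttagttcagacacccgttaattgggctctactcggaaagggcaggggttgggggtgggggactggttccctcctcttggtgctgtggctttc
Both strands were searched for TGTTCT, for the cyclic AMP response element TGACGTCA, for the E-box CACGTG and for the core of the interferon-stimulated response element, read as GAAA repeated after 2 bases of any kind. The Samd4a stretch held 1 TGTTCT, a hexamer found in 17.5% of the 33469 promoters of the table, and none of the other 3 motifs, while the Psmb8 stretch held none of the 4. The other motifs occurred in 1.59% (TGACGTCA), 5.59% (CACGTG) and 3.41% (interferon-stimulated element) of all promoters. GC content was 54.4% for Samd4a and 55.2% for Psmb8, against a median of 51.2% over all promoters.

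Potassium channel genes held 6 of the 321 genes with an unadjusted p under 0.05 on the higher side and none on the lower side, among 52 tested, where 2.31% of all genes fell on the higher side. Their median log2 fold was 0.06, against -0.003 over all genes, and 33 of the 52 were positive. The median was 0.03 without ELS-HFD 4 and 0.13 without control 4. Kcng3, a silent subunit that modifies other potassium channels when it assembles with them, was at 1.25, 1.05, 1.64 and 1.73 CPM in controls 1 to 4 and at 3.85, 2.30, 3.24 and 3.44 CPM in ELS-HFD 1 to 4. The lowest ELS-HFD library, ELS-HFD 2, was above the highest control, and the log2 fold was 1.20 ± 0.24. Kcna4, which encodes the A-type channel Kv1.4 of axons and terminals, was at 19, 19.2, 22.5 and 18 CPM in controls and 27.5, 23.9, 27.8 and 24.8 CPM in ELS-HFD. All ELS-HFD libraries were above all controls for Kcna4 as well, with a log2 fold of 0.41 ± 0.09. The inward rectifiers Kcnj4 and Kcnj9, of which the second is a G protein-gated GIRK subunit, had log2 folds of 0.41 ± 0.15 and 0.29 ± 0.11, the ether-a-go-go type channel Kcnh3 had 0.33 ± 0.14, and the sodium-activated channel Kcnt1 had 0.28 ± 0.12. These 4 overlapped between the groups, and for each of them ELS-HFD 3 was in or next to the control range. For Kcnj4 the overlap came through ELS-HFD 2, at 59.2 CPM, while ELS-HFD 3, at 67.9 CPM, was just above the highest control.

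Calcium handling and release genes, the list that holds Jph1, had 3 of 27 tested members higher and 1 lower at an unadjusted p under 0.05, against 2.31% and 1.76% of all genes. Their median log2 fold was 0.10, or 0.04 without ELS-HFD 4 and 0.19 without control 4. The 2 higher members besides Jph1 were Cacna2d1 and Cacnb4, auxiliary subunits of voltage-gated calcium channels, at 0.40 ± 0.17 and 0.29 ± 0.13, and Cacnb4 was at 0.15 without ELS-HFD 4. Orai1, the pore of store-operated calcium entry, was the lower one at -0.36 ± 0.14. Of 25 genes of synaptic vesicle release, Unc13b, a vesicle priming factor, and Syn2, which tethers vesicles, were higher at 0.35 ± 0.11 and 0.16 ± 0.07. Vamp1, the vesicle SNARE of fast-spiking neurons, was at 200, 239, 224 and 214 CPM in controls and 164, 182, 196 and 177 CPM in ELS-HFD. All ELS-HFD libraries were below all controls for Vamp1, with a log2 fold of -0.28 ± 0.08, so the vesicle list held values on both sides of 0 and had a median of 0.04, which was 0.001 without ELS-HFD 4.

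Several receptor genes lay apart between the groups. Gpr52, an orphan receptor coupled to Gs, was at 8.99, 9.96, 10.5 and 6.66 CPM in controls 1 to 4 and at 16.3, 12.1, 13.6 and 15.0 CPM in ELS-HFD 1 to 4, with no overlap and a log2 fold of 0.66 ± 0.16. Adrb1, the beta-1 adrenergic receptor, was at 14.1 ± 1.36 CPM in controls and 20.2 ± 4.42 CPM in ELS-HFD, with ELS-HFD 2 at 15.4 CPM inside the control range and a log2 fold of 0.52 ± 0.15. Gabbr2, a subunit of the metabotropic GABA-B receptor, had a log2 fold of 0.30 ± 0.09 and the GABA-A subunit Gabra2 one of 0.13 ± 0.06. The GABA-A subunits Gabrg1 and Gabrq stood on the other side at -0.25 ± 0.10 and -1.04 ± 0.43. Over the 38 GABA and glutamate receptor genes tested, 2 were higher and 3 lower at an unadjusted p under 0.05, against 2.31% and 1.76% of all genes. The median was 0.06, which turned to -0.03 without ELS-HFD 4.

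Calcr, the calcitonin receptor, which also forms amylin receptors, was at 5.23, 15.1, 12.5 and 4.19 CPM in controls 1 to 4 and at 0.893, 3.71, 2.86 and 2.73 CPM in ELS-HFD 1 to 4. The groups did not overlap, but controls 2 and 3 were far above controls 1 and 4. Its log2 fold was -1.86 ± 0.49, and the HFD and ELS groups lay between, at 6.32 ± 2.26 and 6.25 ± 2.73 CPM. The receptor-activity modifying proteins that partner this receptor family overlapped between the groups, with log2 folds of 0.10 ± 0.13 for Ramp1, -0.07 ± 0.10 for Ramp2 and 0.35 ± 0.25 for Ramp3, and so did the related receptor gene Calcrl at 0.06 ± 0.12. The signs of Ramp2 and Calcrl changed when a single library was left out.

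**Figure D2:**
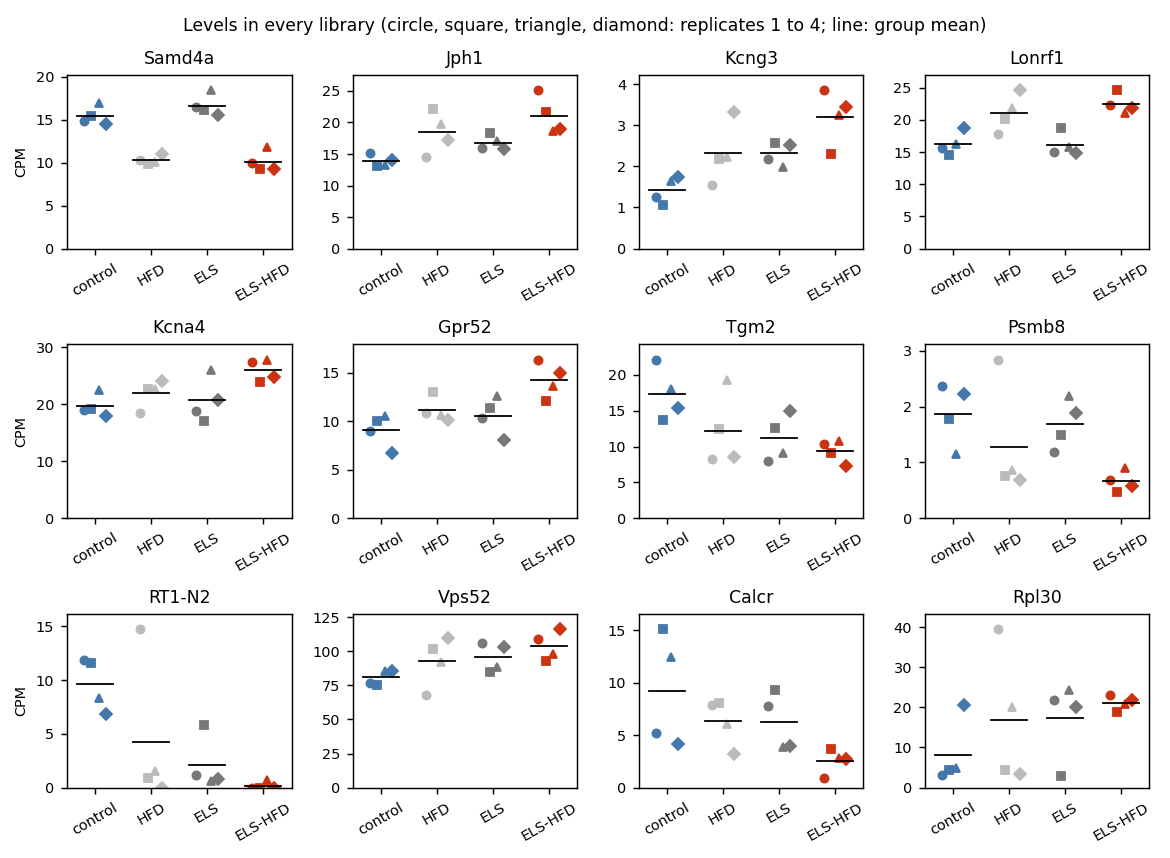
Level in CPM (y axes, from 0) of 12 genes in each of the 16 libraries by group (x axes), with replicates 1 to 4 as circle, square, triangle and diamond and the group mean as a line. Samd4a is low in both high fat diet groups, Calcr is high in controls 2 and 3, and HFD 1 sits with the controls for RT1-N2, Psmb8 and Vps52.

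Among the other genes with the smallest p on the higher side, the largest amounts of RNA belonged to Olfm1 and Basp1. Olfm1, a secreted olfactomedin of neurons, was at 985, 888, 936 and 919 CPM in controls and at 1440, 1170, 1080 and 1180 CPM in ELS-HFD, without overlap and with a log2 fold of 0.39 ± 0.10. Basp1, a growth-cone protein of the inner membrane, was at 478, 395, 362 and 354 CPM in controls and 474, 571, 563 and 553 CPM in ELS-HFD. Its groups overlapped, since control 1 was above ELS-HFD 1, and the log2 fold was 0.45 ± 0.11. Lonrf1, a RING finger and LON domain protein, was at 16.3 ± 1.84 CPM in controls and 22.5 ± 1.53 CPM in ELS-HFD, and the postsynaptic scaffold gene Dlgap2 at 28.9 ± 1.54 and 38.2 ± 5.90 CPM. Log2 folds were 0.47 ± 0.10 for Lonrf1, 0.41 ± 0.11 for Dlgap2, 0.39 ± 0.10 for the ganglioside sialyltransferase St8sia5, 0.67 ± 0.17 for the ADP-ribosyltransferase family gene Art3 and 0.64 ± 0.16 for the GTPase-activating protein gene Arhgap10. All 4 ELS-HFD libraries were above all 4 controls for these 5 genes.

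On the lower side, Tmem100, a membrane protein best known from endothelial signalling, was at 28.3 ± 2.54 CPM in controls and 21.1 ± 2.05 CPM in ELS-HFD, a log2 fold of -0.41 ± 0.10. The ubiquitin ligase Rnf128 was at -0.36 ± 0.09 and the lysosomal sulfatase Galns at -0.42 ± 0.11, and neither overlapped between the groups. Gfra2, the neurturin receptor, was at 20.7, 36, 30.7 and 23.3 CPM in controls and at 15.5, 21.4, 13.0 and 15.0 CPM in ELS-HFD, with overlap through ELS-HFD 2 and a log2 fold of -0.77 ± 0.20. Crebbp, a histone acetyltransferase, was the only member of the 29 DNA methylation and histone enzyme genes with an unadjusted p under 0.05. Of all genes, 1.76% were lower at that p. Crebbp was at 51.0 ± 7.31 CPM in controls and 40.2 ± 2.49 CPM in ELS-HFD, a log2 fold of -0.34 ± 0.10 without overlap. That list had 15 positive and 14 negative members and a median of 0.01. Of 38 translational repressors and RNA decay genes, the list that holds Samd4a, the median was 0.02 and 1 further member, the decapping helicase Ddx6, was under 0.05 at -0.17 ± 0.08.

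Genes around the major histocompatibility complex (MHC) on rat chromosome 20 were described after their values had been seen. The MHC, called RT1 in the rat, holds the class I and class II genes that present peptides to T cells together with proteasome and transporter genes of that pathway, and it differs between rat strains in sequence and gene number. Of the tested genes, 12408 (89.5%) matched a single RefSeq gene by symbol, and their order was taken from RefSeq. Chromosome 20 had the largest share of genes with an unadjusted p under 0.05, 30 of 344 or 8.72%, against 2.65% to 5.46% on the other chromosomes. Between the outermost RT1 genes 14 of 88 tested genes were under 0.05, or 15.9%, with 6 higher and 8 lower and a median of -0.02. Among the next 30 genes after this stretch 3 were under 0.05, and among all other matched genes 486 of 12289, or 3.95%. No test was made of these shares, neighbouring genes are not independent, and the count in the stretch ranged from 8, with a minimum count of 50, to 20, without ELS-HFD 3.

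**Figure D3:**
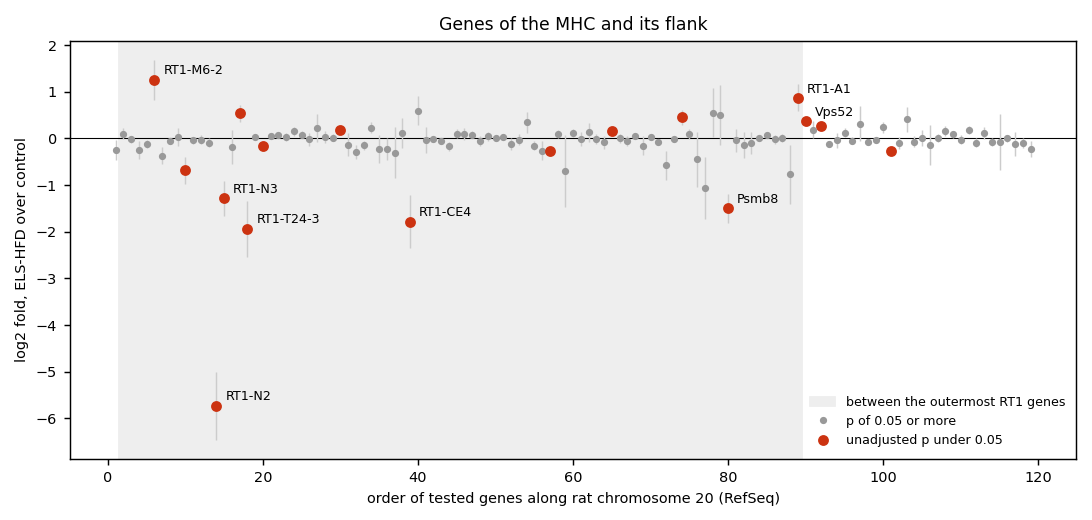
Log2 fold of ELS-HFD over control (y axis, bars show 1 standard error) for tested genes in their RefSeq order along rat chromosome 20 (x axis), with the stretch between the outermost RT1 genes shaded. The 14 red points in the shaded stretch lie on both sides of 0, with RT1-N2 far below the rest and Psmb8 and Vps52 at or near its right edge.

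RT1-N2, a class I gene, was at 11.9, 11.6, 8.29 and 6.82 CPM in controls 1 to 4 and at 0, 0, 0.753 and 0 CPM in ELS-HFD 1 to 4. Every control had the transcript and 3 of the 4 ELS-HFD libraries had no count. The log2 fold of -5.73 ± 0.73 (adjusted p = 0.264) depends on the single ELS-HFD library with counts and its size is not fixed. The other groups were mixed, with HFD 1 at 14.7 CPM and the remaining HFD libraries at 0.883, 1.51 and 0 CPM, and with ELS libraries at 1.18, 5.78, 0.643 and 0.795 CPM. Other class I genes lay on either side. RT1-N3 was at -1.28 ± 0.38, RT1-T24-3 at -1.94 ± 0.60 and RT1-CE4 at -1.78 ± 0.57, whereas RT1-A1 was at 0.87 ± 0.29, RT1-M6-2 at 1.26 ± 0.43 and RT1-T24-4 at 0.54 ± 0.18. These genes share sequence with near copies, so the counts may be divided between them in ways that depend on the reference, and each value is uncertain.

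Genes of other families in and beside the same stretch also lay apart between the groups. Psmb8, a catalytic subunit of the immunoproteasome, was at 2.37, 1.77, 1.15 and 2.22 CPM in controls 1 to 4 and at 0.687, 0.473, 0.904 and 0.584 CPM in ELS-HFD 1 to 4, a log2 fold of -1.5 ± 0.30 without overlap. HFD 1 again stood with the controls, at 2.84 CPM, and the other HFD libraries with ELS-HFD, at 0.757, 0.855 and 0.680 CPM. The ELS group did not repeat its RT1-N2 pattern. Its libraries 1 to 4 were at 1.18, 1.49, 2.19 and 1.88 CPM for Psmb8, all within the control range. For RT1-N2, ELS 1, ELS 3 and ELS 4 were far below the controls. Vps52, a subunit of the GARP complex that returns vesicles to the Golgi, was at 76.8, 75.3, 85.8 and 85.2 CPM in controls and 109, 92.7, 97.7 and 116 CPM in ELS-HFD. No library overlapped for Vps52, the log2 fold was 0.37 ± 0.09, and HFD 1 was at 67.8 CPM while the other HFD libraries were at 91.8 to 110 CPM. ELS libraries ran from 84.5 to 106 CPM, from the control range into that of ELS-HFD. The lipid-raft protein gene Flot1 (0.17 ± 0.06), the stress-response transcription factor gene Atf6b (0.17 ± 0.06) and Gpsm3, a regulator of G protein signalling (0.45 ± 0.16), lay in the stretch and had all ELS-HFD libraries above all controls. Trim15, a tripartite motif family gene, at -0.68 ± 0.29, and Prr3, at -0.16 ± 0.07, had all ELS-HFD libraries below all controls. With RT1-N2, RT1-N3 and Psmb8 that made 3 genes of the 88 above and 5 below without overlap, against 1.05% and 0.908% of all genes.

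The 29 tested genes of the interferon response had 24 negative and 5 positive log2 folds, with a median of -0.22 against -0.003 over all genes. At an unadjusted p under 0.05, 4 were lower and 1 higher, against 1.76% and 2.31% of all genes. Rsad2, the antiviral enzyme viperin, was at 2.79, 2.23, 2.79 and 1.56 CPM in controls and 1.17, 1.01, 1.43 and 0.844 CPM in ELS-HFD, without overlap and with a log2 fold of -1.07 ± 0.26. The interferon regulatory factor genes Irf1, Irf7 and Irf9 were at -0.34 ± 0.14, -0.84 ± 0.35 and -0.28 ± 0.10, each with overlap, and Irf7 was at -0.47 without control 1. The higher member was Xaf1, an interferon-induced gene known to promote apoptosis, at 0.56 ± 0.24 with overlap. The list level, which is the mean over members of log2 CPM minus the mean of each gene over the 8 libraries, was 0.60 in control 1, the highest, and -0.47 in ELS-HFD 4, the lowest. Levels of the other 6 libraries ran from -0.26 in control 3 to 0.155 in control 4, and without control 1 the median of the list was -0.04. The 26 MHC and antigen processing genes had a median of -0.09, which was 0.05 without control 1, and their highest levels were those of control 1 at 0.69 and ELS-HFD 3 at 0.55, the 2 libraries richest in choroid plexus transcripts. The 19 microglia and complement genes had 14 positive members and a median of 0.07, or 0.02 without control 3.

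Peptide and receptor genes of the central amygdala and hypothalamus lay mostly lower in ELS-HFD, and the controls divided on them. Of 14 hypothalamic markers 13 had negative log2 folds, with a median of -0.37, or -0.59 without ELS-HFD 3. Of 17 central amygdala markers 13 did, with a median of -0.24, which was -0.59 without ELS-HFD 4 and -0.14 without control 3. The galanin gene Gal was at 3.76, 10.7, 10.2 and 1.64 CPM in controls 1 to 4 and at 0.755, 1.69, 3.01 and 0.973 CPM in ELS-HFD 1 to 4. Neurotensin (Nts) was at 10.9, 19.9, 26.3 and 5.10 CPM in controls and 3.64, 5.47, 7.83 and 11.0 CPM in ELS-HFD. For both peptides controls 2 and 3 were the highest of the 8 libraries and control 4 lay within the ELS-HFD range. For Nts control 1 lay within that range too. The groups thus overlapped for both, at log2 folds of -2.05 ± 0.61 for Gal and -1.15 ± 0.48 for Nts. Corticotropin-releasing hormone (Crh) was at 5.22, 7.68, 9.03 and 2.14 CPM in controls and 1.17, 2.90, 3.77 and 4.87 CPM in ELS-HFD, a log2 fold of -0.92 ± 0.47. The same order held for Crh, with controls 2 and 3 on top. Controls 2 and 3 were the 2 highest libraries for 7 of the 17 central amygdala markers and 5 of the 14 hypothalamic ones. They were also the 2 highest for 6 of the 9 markers of basal forebrain cholinergic neurons, and for 914 of all 13870 genes, or 6.59%. This pair was picked after such values had been seen and the lists share some members, so these counts are a description and not a test. Arhgap36, at 7.18, 20.3, 20.8 and 5.59 CPM in controls and 1.99, 6.14, 2.79 and 4.02 CPM in ELS-HFD, had the same order and a log2 fold of -1.84 ± 0.49. The summed level of the hypothalamic markers was 55.73 to 119.3 CPM in controls and 59.96 to 81.37 CPM in ELS-HFD. Lhx8 was at 0 in ELS-HFD 2. Prlr was at 0 in ELS-HFD 1, but it is also on the choroid plexus list, whose markers were all lowest in that library. The part of dissection in these differences was not tested.

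Cholinergic neurons of the basal forebrain send dense fibres into the amygdala, and 9 of their markers were tested. Of these 8 had negative log2 folds, and the median was -0.95, or -0.43 without control 2 and -0.32 with a minimum count of 50. The acetylcholine vesicle transporter gene Slc18a3 was at 1.76 ± 1.12 CPM in controls and 0.872 ± 0.392 CPM in ELS-HFD, and acetylcholinesterase (Ache) at 68.0 ± 15.7 and 53.1 ± 7.90 CPM. The markers summed to 91.82 to 183.4 CPM in controls and 89.48 to 108.8 CPM in ELS-HFD, with controls 2 and 3 highest.

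Of the 38 stress peptide and receptor genes tested, 3 were higher and 5 lower at an unadjusted p under 0.05, against 2.31% and 1.76% of all genes. Of the 38, 28 were negative, and the median was -0.19, or -0.08 without ELS-HFD 3. Tacr3, the neurokinin B receptor, was at 24.5 ± 6.74 CPM in controls and 15.1 ± 4.5 CPM in ELS-HFD, a log2 fold of -0.70 ± 0.24. The peptide gene Vip went the other way, with 15.7 ± 1.70 CPM in controls, 21.3 ± 4.09 CPM in ELS-HFD and 0.44 ± 0.15, and so did the neuropeptide Y receptor gene Npy1r at 0.34 ± 0.14. Of 20 glucocorticoid targets 6 had positive and 14 negative log2 folds, with a median of -0.03 that was -0.10 without ELS-HFD 1 and 0.03 without control 4. The lipid droplet gene Plin4 was the only one of them under 0.05, at 0.75 ± 0.28 from 0.865 ± 0.139 CPM. Sgk1, a kinase that follows glucocorticoid exposure in many tissues, was at 89.8 ± 17.8 CPM in controls and 73.6 ± 10.1 CPM in ELS-HFD with overlap. Immediate early genes, which follow neuronal activity, had 19 of 24 positive log2 folds and a median of 0.09, or 0.03 without ELS-HFD 1, but none was under 0.05. Egr4 and Homer1 were at 0.29 ± 0.21 and 0.21 ± 0.15, and at 0.11 and 0.03 without ELS-HFD 4. Of 19 clock genes 15 were positive, Hlf was at 0.31 ± 0.11 and Rora at -0.65 ± 0.26, and the median was 0.05, or 0.009 without ELS-HFD 4.

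Lists tied to diet and metabolism had medians from -0.12 to -0.02 and more negative than positive members. Of 26 appetite and insulin signalling genes 19 were negative, with a median of -0.06, or -0.11 without control 3. The 1 member with an unadjusted p under 0.05 was Glp1r, the receptor of the gut peptide GLP-1. Of all genes, 1.76% were lower at that p. Glp1r was at 2.16, 1.55, 1.48 and 1.15 CPM in controls and 0.206, 1.49, 0.753 and 0.519 CPM in ELS-HFD, with ELS-HFD 2 inside the control range and a log2 fold of -1.09 ± 0.46, or -1.68 without ELS-HFD 2. Cholesterol biosynthesis genes were negative in 18 of 24 and fatty acid metabolism genes in 25 of 35, with none under 0.05. Their medians of -0.02 and -0.04 ran from -0.08 to 0.003 and from -0.09 to 0.03 when a library was left out. Nuclear-encoded subunits of oxidative phosphorylation had 58 of 68 negative log2 folds and a median of only -0.06, none under 0.05, and the 12 mitochondrially encoded genes had a median of -0.12, or -0.02 without control 4. Of 25 heat shock and unfolded protein response genes 23 were negative with a median of -0.08, or -0.006 without control 1, and ELS-HFD 1 was the lowest library for 17 of them, against 15.9% of all genes.

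Among cytosolic ribosomal protein genes, Rpl30 was the single member of 56 with an unadjusted p under 0.05, where 2.31% of all genes were higher at that p. It was at 3.20, 4.27, 4.84 and 20.6 CPM in controls 1 to 4 and at 23.1, 18.8, 20.9 and 21.9 CPM in ELS-HFD 1 to 4. Control 4 lay within the ELS-HFD range and the other controls far below it, and the log2 fold of 1.40 ± 0.51 became 2.37 without control 4. Both levels also occurred within the other groups, at 39.4, 4.33, 20 and 3.40 CPM in HFD 1 to 4 and at 21.8, 2.97, 24.2 and 20 CPM in ELS 1 to 4. Ribosomal protein genes have many near copies in the genome, so this value is uncertain.

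Myelin and oligodendrocyte genes were negative in all 24 members tested, with a median log2 fold of -0.36. Of the 24, 1 had an unadjusted p under 0.05, where 1.76% of all genes were lower at that p. Sox10, a transcription factor gene of the oligodendrocyte lineage, was at 61.8, 63.9, 67.3 and 75.4 CPM in controls 1 to 4 and at 47.4, 53.5, 66.6 and 52.6 CPM in ELS-HFD 1 to 4, a log2 fold of -0.28 ± 0.11. ELS-HFD 3 was at the control level and the other ELS-HFD libraries were below it. The list shared this pattern, with levels of 0.14 to 0.36 in the controls, 0.44 in ELS-HFD 3 and -0.73, -0.26 and -0.25 in ELS-HFD 1, 2 and 4. Its median was -0.63 without ELS-HFD 3 and -0.22 without ELS-HFD 1, the library lowest for 23 of the 24 members. The myelin genes summed to 8096 to 9866 CPM in controls and 4129 to 10740 CPM in ELS-HFD, and none was at 0 in any library. Oligodendrocyte precursor genes had a median of 0.01.

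**Figure D4:**
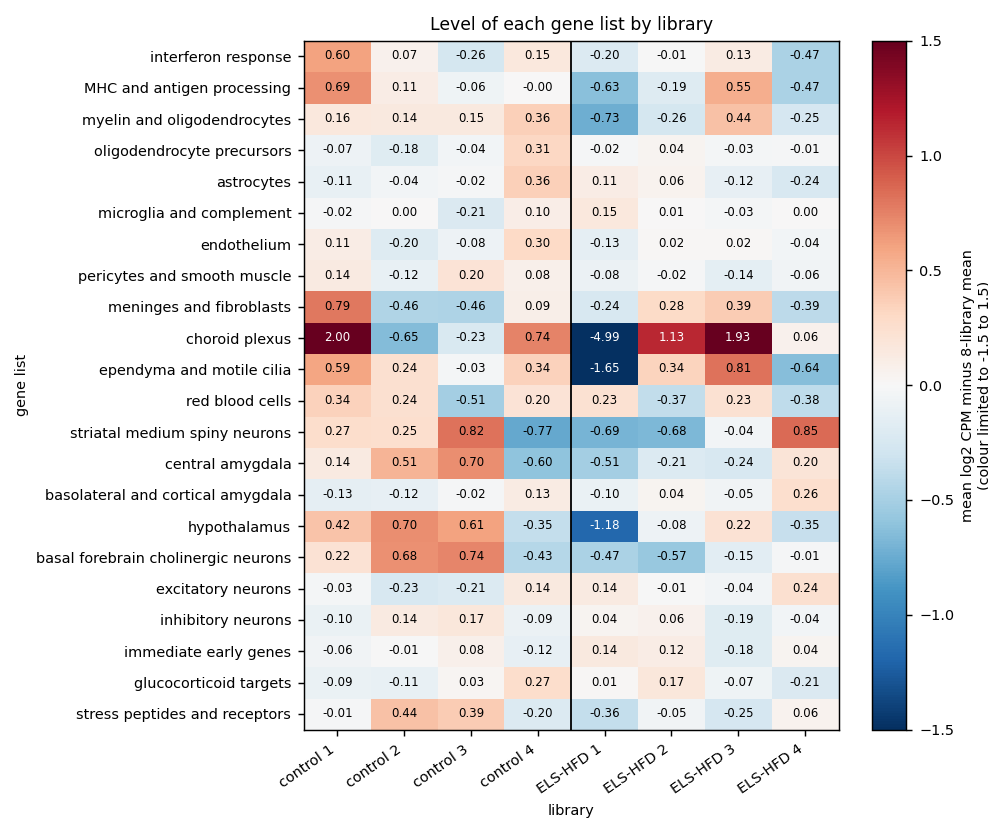
Level of 22 gene lists (rows) in each of the 8 libraries (columns), as the mean over members of log2 CPM minus the mean of each gene over the 8 libraries, with colour limited to -1.5 to 1.5. ELS-HFD 1 is lowest for choroid plexus, ependyma, hypothalamus and myelin, and controls 2 and 3 are high for hypothalamus and cholinergic neurons.

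Cells lining the ventricles set ELS-HFD 1 apart from its group. The choroid plexus level was -4.99 in ELS-HFD 1 and between -0.65 and 2.00 elsewhere, and transthyretin (Ttr), the main secreted protein of this epithelium, was at 0.275 CPM there against 1889 to 10280 CPM in the other 7 libraries. All 18 choroid plexus markers had their lowest level in ELS-HFD 1, and Prlr had no count in it. Between the groups the list was split into 9 positive and 9 negative members with a median of -0.006, which was -0.71 without ELS-HFD 3 and 0.80 without control 1. Ependymal and motile cilium genes had 14 of 16 negative log2 folds and a median of -0.29, which was 0.002 without ELS-HFD 1 and -0.82 without ELS-HFD 3.

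Excitatory neuron genes had 12 of 15 positive log2 folds and a median of 0.20, or 0.05 without ELS-HFD 1. The cortical transcription factor gene Emx1 was under 0.05, at 10.9, 9.28, 10.3 and 8.96 CPM in controls and 15.9, 11.6, 10.5 and 14.9 CPM in ELS-HFD, with overlap through ELS-HFD 3 and a log2 fold of 0.43 ± 0.15. The vesicular glutamate transporter gene Slc17a7 was at 1590 ± 271 CPM in controls and 1860 ± 129 CPM in ELS-HFD. Genes of the basolateral and cortical amygdala had a median of 0.10, or 0.01 without ELS-HFD 4, with 14 of 18 positive. Inhibitory neuron genes had a median of -0.05, or -0.17 without ELS-HFD 1, and Slc32a1, the vesicular GABA transporter gene, was at 157, 243, 282 and 120 CPM in controls against 121 to 172 CPM in ELS-HFD, again with controls 2 and 3 on top. Astrocyte genes had 17 of 20 negative members and a median of -0.09, which turned to 0.02 without control 4.

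**Figure D5:**
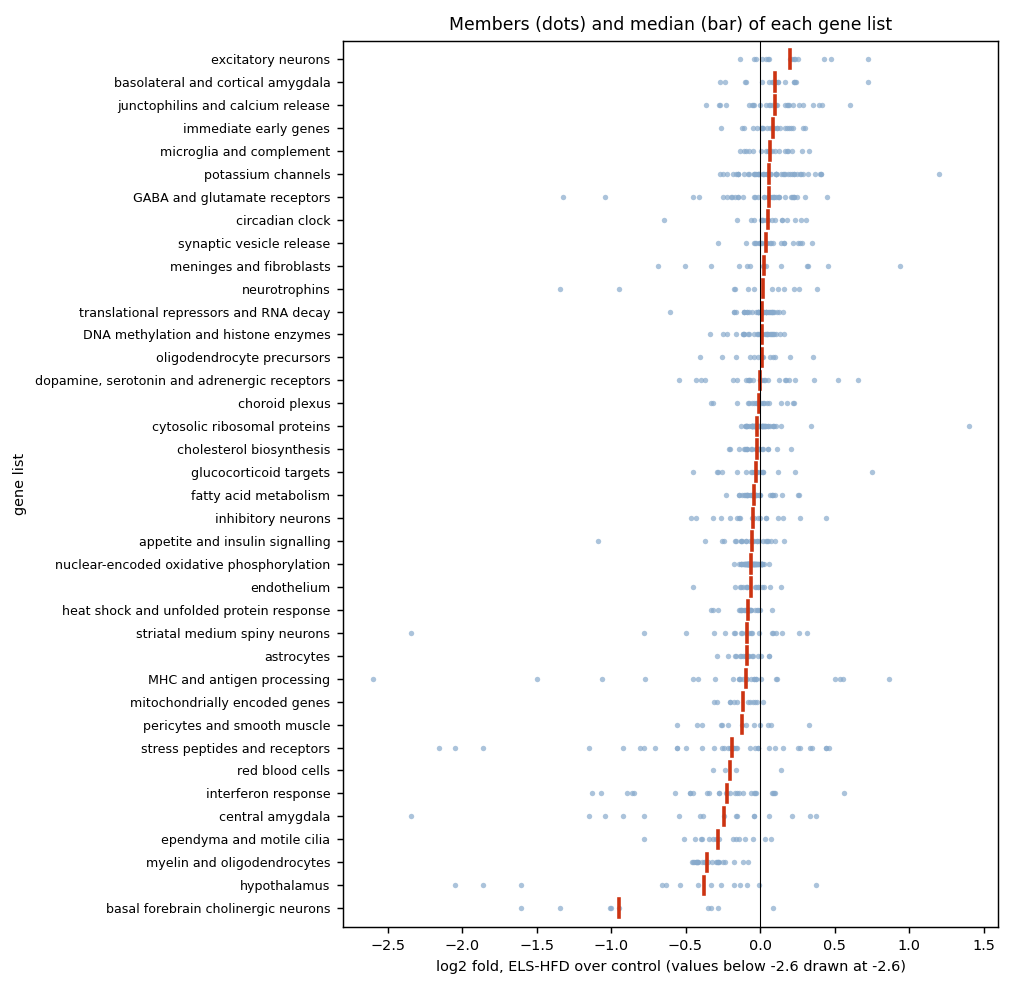
Log2 fold of ELS-HFD over control (x axis) of every tested member (dots) of the 38 gene lists (y axis), ordered by their median (bars). Medians run from 0.20 for excitatory neurons to -0.95 for basal forebrain cholinergic neurons, and most lie within 0.1 of 0.

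The 2 exposures were also set beside each other through the groups with a single one. ELS-HFD was tested against HFD and against ELS, and the interaction asked whether its difference from control departed from the sum of the single differences. Against HFD 0 of 14208 genes passed, with 252 (1.77%) at an unadjusted p under 0.05, and for the interaction 0 passed, with 317 (2.23%) at that p. Against control, 262 genes (1.84%) were under that p in HFD and 472 (3.32%) in ELS. Each group of libraries enters several of these comparisons, so they are not independent. Log2 folds against control were -0.58 ± 0.09 in HFD (adjusted p = 0.199) and 0.11 ± 0.09 in ELS (adjusted p = 0.999) for Samd4a, and the interaction of -0.14 ± 0.13 had an adjusted p of 1. For Kcng3 they were 0.74 ± 0.24 in HFD (adjusted p = 1) and 0.73 ± 0.25 in ELS (adjusted p = 0.999), and the interaction was -0.27 ± 0.33 (adjusted p = 1). Lonrf1 followed the order of Samd4a with the opposite sign, at 0.38 ± 0.11 in HFD and -0.01 ± 0.11 in ELS, with an interaction of 0.11 ± 0.15 (adjusted p = 1). Galns had log2 folds of -0.28 ± 0.11 and -0.44 ± 0.11, and its interaction of 0.30 ± 0.16 also had an adjusted p of 1. For Lonrf1 and Galns the adjusted p against control was 1 in HFD and 0.999 in ELS. With 4 libraries a group, departures from the sum could be missed even when they were large. Samd4a in HFD, at -0.58 ± 0.09, did not pass, and neither did the interaction of Isl1 at -2.206 ± 1.025. The absence of calls therefore does not show that the 2 exposures add up.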

How the data were processed

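Per the labels' protocols, 15 ng of RNA was reverse transcribed from oligo-dT primers that carried sample barcodes, then pooled, amplified linearly and sequenced on an Illumina instrument. STAR, HTSeq, cutadapt, Picard and DESeq2 and the build Rnor_6.0 are listed in the submitters' processing notes, with no versions, roles or order. Strand and molecular identifiers are not given in the sources used here, so a gene and its antisense partner cannot be separated. The authors deposited raw counts per Ensembl gene, the values used here. A normalized signal, also deposited, was the count over a constant for its library, to within a relative 4e-05. Log2 folds and p-values of the authors' deposited table are printed only where that table is named. No pair of the 8 libraries agreed within sampling noise.

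Counts of the 8 libraries were tested by edgeR 4.0.16 (R 4.3.3) with its quasi-likelihood F test. Scaling was by TMM, with factors of 0.957 to 1.029, filterByExpr was run with min.count 10 and min.total.count 15, and p-values were adjusted by Benjamini-Hochberg over 13870 genes with a threshold of 0.05. The standard error of a log2 fold was taken as its size over the root of F. CPM levels use TMM factors of all 16 libraries, as mean ± SD, and list levels use log2 CPM with a prior count of 2. Comparisons with HFD and ELS and the interaction come from 1 edgeR model of 16 libraries and 14208 genes. Alternatives included DESeq2 1.42.0, limma 3.58.1, other scalings and filters, a block on replicate number, the N or B that ends each library code, whose meaning is not given, and leaving out each library. Named genes were the 12 with the smallest p in each direction that have a true symbol, those at an adjusted p of at most 0.05 in the authors' deposited table, up to 4 members of each of 38 lists with the smallest p, and paralogs or partners. Kcnh3, Kcnt1, Xaf1, Crh, Ttr, Lhx8 and the MHC stretch with its other genes were added after their values were seen. The comparison, lists and rules were chosen with earlier results of these data known. A list is described by counts and medians, with no test of its own. Depth limits low genes most, and counting error is only part of the spread.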

Additional observations from a re-analysis of the deposited data

Results flagged for a closer look

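In 136 groups of 4 libraries, over named genes with the smallest p and list levels, 6 held a library far from the other 3 by Dixon's criterion, and chance gives about 1 in 20. St8sia5 was at 32.3 CPM in ELS-HFD 4 and at 26.2, 25.9 and 26.2 CPM in the other ELS-HFD libraries. Galns was at 11.5 CPM in ELS-HFD 2 against 9.00, 9.11 and 9.15 CPM, and was nearest to the controls there. RT1-N2 was at 0.753 CPM in ELS-HFD 3 and had no count in the other ELS-HFD libraries. Arhgap10 was at 4.69 CPM in control 4 against 3.97, 3.87 and 3.86 CPM, and was nearest to the ELS-HFD group there. The myelin list had a level of 0.358 in control 4 against 0.164, 0.144 and 0.146 in the other controls. The list of red blood cells had a level of -0.507 in control 3 against 0.345, 0.244 and 0.200.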

How the results depend on the processing

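The count of genes past the threshold, 0 in edgeR, was 3 in DESeq2, 1 in limma voom and 0 to 1 when a library was left out, and 0 under the other scalings, filters, the 16-library model, the library letter and the replicate block. The count at an unadjusted p under 0.05, 565, was 956 in limma voom and 314 to 1045 when a library was left out. The chromosome 20 count, 14, was 8 with a minimum count of 50, 9 with the replicate block and 11 to 20 when a library was left out. The single call between ELS-HFD and ELS gave counts of 0 to 1, and the log2 fold of Samd4a there ran from -0.80 to -0.67. Of 173 named genes, 8 changed sign under some setting, Prlr, F5, Wfikkn2, Kcne2, Hba-a3, Samd4b, Ramp2 and Calcrl, and the log2 fold of 96 moved by over 1.5 times when some library was left out, among them 8 of the 68 with an unadjusted p under 0.05. The replicate numbers did not pair the libraries. Same-numbered libraries had correlations of -0.502 to -0.146 in their deviations from the group means, 0 of 8 libraries correlated best with its own number, and with the replicate block 386 genes had an unadjusted p under 0.05 and 0 passed. The alternatives for the chromosome 20 count and for ELS-HFD against ELS were chosen after seeing the data. The causes of these shifts were not tested.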

Other observations

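The authors' deposited table listed 13 genes at an adjusted p of at most 0.05 once its p-values had been corrected, and 6 of them are not described above. The authors' thresholds for a call also asked for an absolute log2 fold of at least 0.585 and a maximum count of at least 30. In that table Lonrf1, Pex6, LOC100125362, Spg7 and Rab3d did not reach this fold. Pex6, an ATPase that peroxisomes need to import their enzymes, was at 48.4 ± 3.67 CPM in controls and 56.9 ± 1.22 CPM in ELS-HFD, a log2 fold of 0.24 ± 0.07 without overlap. Rab3d, a small GTPase of secretory vesicles, was at 25.8 ± 2.80 and 32.8 ± 4.19 CPM, and Spg7, a protease subunit of the inner mitochondrial membrane, at 70 ± 7.49 and 58.3 ± 2.40 CPM, both with overlap. Asb4, known from hypothalamic feeding neurons, was at 2.86, 8.14, 7.88 and 1.40 CPM in controls 1 to 4 and at 0.687, 1.89, 1.28 and 1.04 CPM in ELS-HFD 1 to 4. Its levels followed those of Calcr, with controls 2 and 3 highest, and the log2 fold was -2.05 ± 0.55. LOC100125362 was at 0.36 ± 0.10 without overlap, and AABR07041096.1 at -1.90 ± 0.47 with control 1 inside the ELS-HFD range. None of the 6 passed in edgeR, where each had an adjusted p of 0.999.

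Vascular and monoamine receptor genes lay close to the median of all genes. The 16 endothelial markers had a median of -0.06, or 0.04 without control 4, and the 13 pericyte and smooth muscle markers one of -0.12, with Tagln, an actin-binding protein of smooth muscle, at 16 ± 5.03 CPM in controls and 10.8 ± 1.20 CPM in ELS-HFD and a log2 fold of -0.56, or -0.34 without control 1. The 26 dopamine, serotonin and adrenergic receptor genes were split evenly, 13 positive and 13 negative, with the serotonin receptor gene Htr4 at -0.54 ± 0.23. Among 12 neurotrophin genes 6 were positive and 6 negative. Of 20 striatal markers 14 were negative with a median of -0.09, which was 0.17 without control 3 and -0.39 without ELS-HFD 4. Rxrg, a retinoid receptor of striatal neurons, was at 49.9 ± 3.13 CPM in controls and 42.2 ± 2.41 CPM in ELS-HFD without overlap, a log2 fold of -0.24 ± 0.07.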
